A study of Homo sapiens with 6 samples.

Results

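UGCG encodes UDP-glucose ceramide glucosyltransferase, the enzyme that adds glucose to ceramide. It was examined with 8 further genes of ceramide and glycosphingolipid metabolism (SPTLC1, SPTLC2, CERS2, CERS5, B4GALT5, B4GALT6, ST3GAL5 and ASAH1) in RNA-seq of Jeko and Rec-1, both established human lines derived from mantle cell lymphoma, which is a cancer of B cells. These are 9 of the 25277 gene rows in the deposited table, taken by gene symbol. UGCG was chosen by its measured FPKM, which was higher in all 4 libraries with an sgRNA than in the control of the same line, so its own comparison with control is given below as a description with no test. The other 8 were picked for their place in the pathway, with earlier results of these data known. Each line had 1 control, stably carrying the empty CRISPR/Cas9 vector, and 2 libraries from cells carrying NR4A1 sgRNA#1 or NR4A1 sgRNA#2, here called sgRNA 1 and sgRNA 2. All 6 cultures, controls included, were stable lines made with a tet-on vector and received doxycycline for 48 h, so none shows these genes without vector or drug. Whether the stable cells were clones or pools is not given in the sources used here, and no control was repeated. The libraries labelled sgRNA#1 and sgRNA#2 serve as replicates. Nothing says that they are replicate cultures of 1 state, so p-values measure only the spread between these samples, which may be technical. In the fit over both lines, that spread also holds any difference between the lines in how far sgRNA and control libraries differ.

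Ceramide is the hub of sphingolipid metabolism. Serine palmitoyltransferase and the ceramide synthases supply it in the endoplasmic reticulum. UGCG, in the Golgi, converts it to glucosylceramide, the base of most glycosphingolipids, to which a galactosyltransferase adds galactose to give lactosylceramide, and a sialyltransferase can then make the ganglioside GM3. Ceramide is known to promote cell death, and its removal by glucosylation is known from cancer cells that tolerate cytotoxic drugs. Acid ceramidase in the lysosome removes ceramide by another way, splitting it to sphingosine and a fatty acid.

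NR4A1, the targeted nuclear receptor gene, had levels of 5.99, 3.89 and 4.44 FPKM in the Jeko control, sgRNA 1 and sgRNA 2, and of 11.6, 27.4 and 12.7 FPKM in the libraries labelled Rec-1 control, sgRNA 1 and sgRNA 2. FPKM counts fragments scaled by transcript length and by the mapped fragments of the library. The mRNA was thus lower than control in Jeko and not in Rec-1, and mRNA level does not show whether the gene was cut. Across 10322 protein-coding genes, the Pearson r of log2(FPKM + 1) between both controls was 0.988, whereas that of the library labelled Rec-1 control with Rec-1 sgRNA 1 and 2 was 0.805 and 0.811. The summed level of the B-cell markers (7 of 7 in the table) was between 1924 and 3609 FPKM in all 6 libraries. Cyclin D1 (CCND1), the defining gene of mantle cell lymphoma, ranged from 442 to 815 FPKM over Jeko and the library labelled Rec-1 control, and was 0.696 and 0.592 FPKM in the libraries labelled Rec-1 sgRNA. SOX11, the other marker of this lymphoma examined, ranged from 7.11 to 11.1 FPKM over Jeko and the library labelled Rec-1 control. It was lower but still present in Rec-1 sgRNA 1 and 2, at 3.60 and 2.45 FPKM. T-cell markers (4 of 5 in the table) summed to between 2.11 and 5.43 FPKM in Jeko and the library labelled Rec-1 control. In the libraries labelled Rec-1 sgRNA they summed to 102 and 120 FPKM, mostly CD3D. CD2 was at 0.0288 FPKM in Rec-1 sgRNA 1 and listed at 0 in Rec-1 sgRNA 2. Myeloid markers (4 of 4) summed to between 0.573 and 2.60 FPKM, and of the fibroblast markers COL1A2 and DCN were listed at 0 in every library and COL1A1 was at most 3.37 FPKM. Whether the Rec-1 sgRNA libraries hold the same cells as their labelled control is not known. In every comparison with that control, both-line and interaction values included, a response to sgRNA and such a difference between cells cannot be told apart. Values for Jeko alone are therefore given beside those for both lines.

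The UGCG gene (chromosome 9, 114659094 to 114697649, plus strand, GRCh37, as for all gene positions below) stood at 1.27 FPKM in control Jeko cells, 7.23 with sgRNA 1 and 7.03 with sgRNA 2. In the libraries labelled Rec-1 it was 1.82 FPKM in the control, 26.9 with sgRNA 1 and 17.8 with sgRNA 2. The choice of the gene required each sgRNA library to be above its own control, and the lowest of them was above both controls. Relative to the own-line control, Jeko sgRNA 1 and 2 stood at 5.68 and 5.52 times, and the Rec-1 pair at 14.8 and 9.76 times. On the log2(FPKM + 1) scale, on which all differences below are given and which understates changes of low genes, UGCG differed from control by 1.86 (sgRNA 1) and 1.82 (sgRNA 2) in Jeko cells and by 3.30 and 2.73 in Rec-1, a mean of 2.43 with an SD of 0.72 over the 4 differences. Of the 11400 genes tested (those whose mean over libraries reached 1 FPKM), 133 and 145 had a larger difference than UGCG in Jeko sgRNA 1 and 2, and 276 and 376 in Rec-1 sgRNA 1 and 2. The libraries with sgRNA 1 and 2 stood close together in Jeko (7.13 ± 0.15 FPKM, SD, n = 2) and further apart in Rec-1 (22.3 ± 6.43 FPKM, SD, n = 2). In bulk RNA, fewer cells that express a gene and less of its RNA per cell cannot be told apart.

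**Figure D1:**
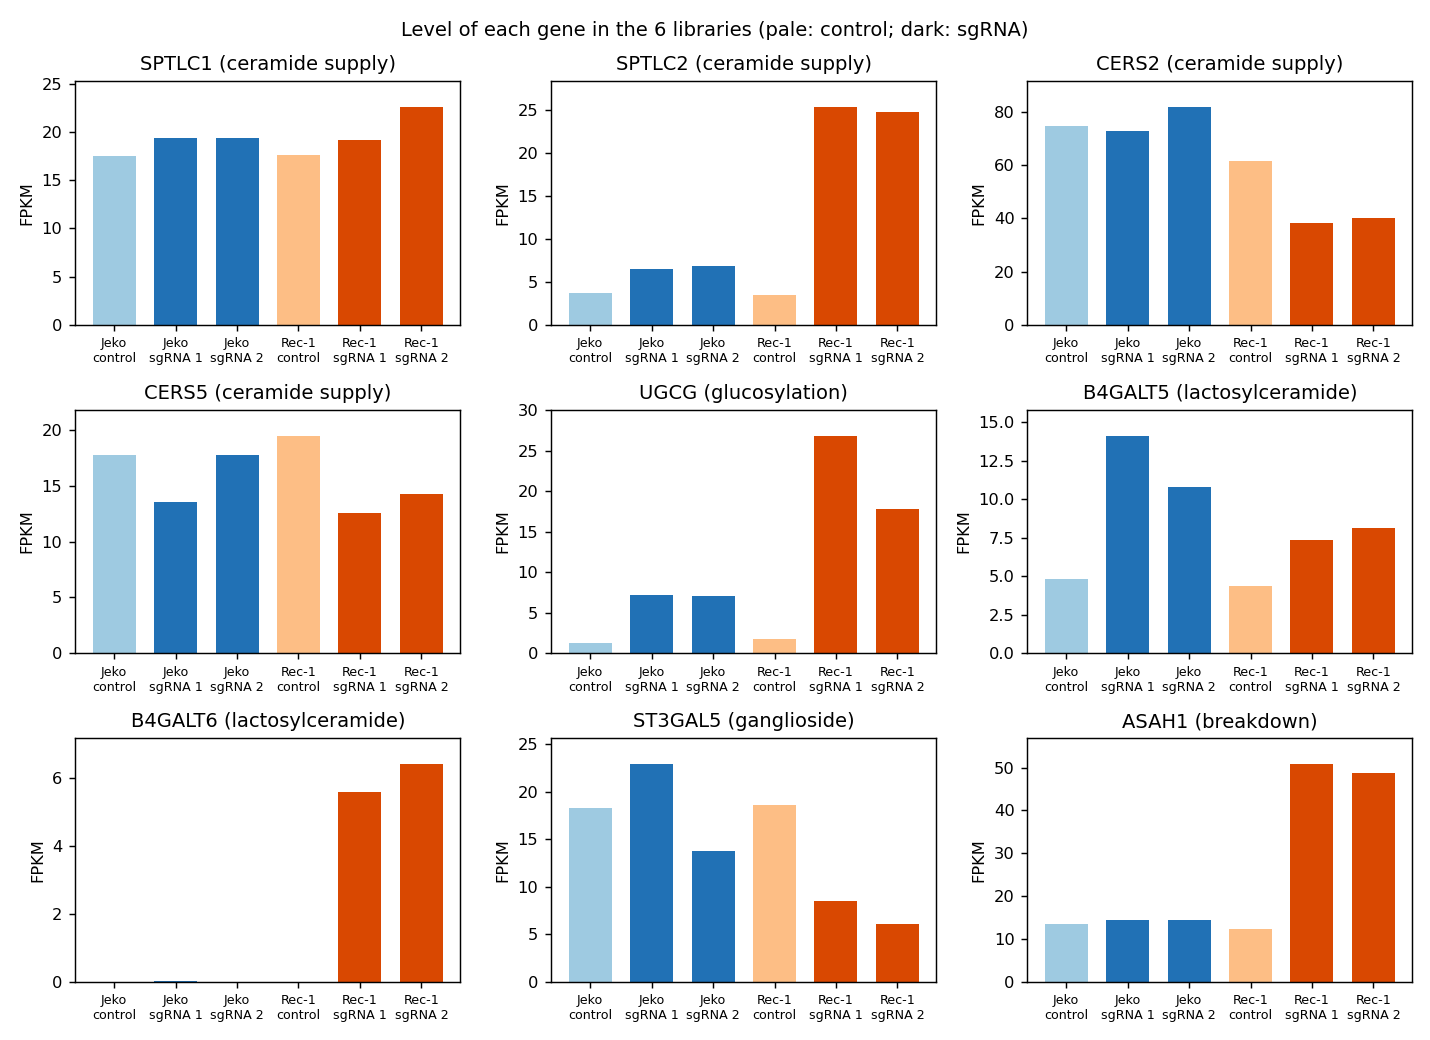
FPKM (linear axis from 0) of the 9 genes in the 6 libraries, 1 bar per library, with controls pale, sgRNA libraries dark, Jeko in blue and Rec-1 in orange. UGCG goes from 1.27 and 1.82 FPKM in the controls to between 7.03 and 26.9 with sgRNA, while SPTLC1 lies between 17.5 and 22.6 FPKM throughout and B4GALT6 is seen in the Rec-1 sgRNA libraries.

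Promoter sequences are shown for UGCG, SPTLC2 and B4GALT5, that is, for UGCG and the 2 other genes with an unadjusted p under 0.05 over both lines. They are the 250 bases before the annotated start, from RefSeq (GRCh38.p14), written 5′ to 3′ on the strand of the gene, at chr9:111896564-111896813 (plus), chr14:77616638-77616887 (minus) and chr20:49713879-49714128 (minus). Capitals mark the GC box, GGGCGG read on either strand.
UGCG: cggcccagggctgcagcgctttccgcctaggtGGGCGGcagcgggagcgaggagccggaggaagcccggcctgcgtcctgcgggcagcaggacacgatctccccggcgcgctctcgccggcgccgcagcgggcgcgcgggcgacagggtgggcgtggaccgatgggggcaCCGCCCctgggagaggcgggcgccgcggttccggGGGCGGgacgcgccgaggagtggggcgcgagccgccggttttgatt
SPTLC2: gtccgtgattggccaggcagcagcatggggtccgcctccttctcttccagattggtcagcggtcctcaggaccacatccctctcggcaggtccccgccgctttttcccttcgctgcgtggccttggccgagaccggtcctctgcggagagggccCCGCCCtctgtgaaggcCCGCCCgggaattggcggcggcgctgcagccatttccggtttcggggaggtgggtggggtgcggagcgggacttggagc
B4GALT5: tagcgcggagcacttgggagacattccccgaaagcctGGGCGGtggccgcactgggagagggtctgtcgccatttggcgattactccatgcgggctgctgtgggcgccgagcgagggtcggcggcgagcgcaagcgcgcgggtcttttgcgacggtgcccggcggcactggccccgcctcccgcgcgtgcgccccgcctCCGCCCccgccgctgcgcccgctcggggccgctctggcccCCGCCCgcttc
The sequences of UGCG and B4GALT5 hold 3 GC boxes each and that of SPTLC2 holds 2, and 42.6% of the 35116 promoters in the table hold at least 1. The NR4A1 response element NBRE (AAAGGTCA, searched on both strands) occurs in none of these windows. It was also in none of those of SPTLC1, CERS5 and ST3GAL5 (5 annotated starts), the other genes matched, 6 of the 9 in all, and 1.05% of all promoters hold it. CERS2, B4GALT6 and ASAH1 were not matched. GC boxes numbered 5 for CERS5, 2 for SPTLC1 and from 0 to 3 over the annotated starts of ST3GAL5. They did not set the genes shown apart. A match is a description of letters and not of binding.

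Upstream of UGCG, the genes for the subunits of serine palmitoyltransferase, which makes the first committed step of sphingolipid synthesis, differed from each other. SPTLC1 (chromosome 9, 94762369 to 94877695, minus strand) was 17.5 FPKM (control), 19.4 (sgRNA 1) and 19.3 (sgRNA 2) in Jeko, and 17.6, 19.2 and 22.6 FPKM in the same order in Rec-1. All 6 values lie within a narrow range, and the difference over both lines was 0.18 (SE 0.17, limma adjusted p 0.529) and that in Jeko was 0.14. SPTLC2 (chromosome 14, 77972340 to 78082980, minus strand), the catalytic subunit, was 3.68 FPKM (control), 6.50 (sgRNA 1) and 6.89 (sgRNA 2) in Jeko, and 3.49, 25.3 and 24.7 FPKM in the same order in Rec-1. Every sgRNA library was above both controls, and those of Rec-1 were far above those of Jeko. In Jeko the difference was 0.72 (SE 0.19, limma adjusted p 0.397), and over both lines it was 1.63 (SE 0.42, limma adjusted p 0.177), which did not pass. Without the library labelled Rec-1 control it was 0.72 (limma adjusted p 0.40). The ratio of SPTLC2 to SPTLC1 in FPKM was 0.210 and 0.199 in the Jeko and Rec-1 controls, 0.336 and 0.356 in Jeko sgRNA 1 and 2, and 1.32 and 1.09 in Rec-1 sgRNA 1 and 2.

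The ceramide synthases CERS2 and CERS5 showed no level above both controls in all sgRNA libraries. CERS2 (chromosome 1, 150933059 to 150947479, minus strand), which prefers very long acyl chains, was 74.8 FPKM (control), 72.9 (sgRNA 1) and 81.7 (sgRNA 2) in Jeko, and 61.6, 38.1 and 40.1 FPKM in the same order in Rec-1. It was the most abundant of the 9 in Jeko and in the Rec-1 control, and second to ASAH1 in the Rec-1 sgRNA libraries. Its difference over both lines was −0.30 (SE 0.23, limma adjusted p 0.433), and it was 0.04 in Jeko. CERS5 (chromosome 12, 50523072 to 50561316, minus strand), which makes ceramide with the shorter palmitoyl chain, was 17.7 FPKM (control), 13.5 (sgRNA 1) and 17.7 (sgRNA 2) in Jeko, and 19.5, 12.5 and 14.2 FPKM in the same order in Rec-1. Jeko sgRNA 2 and the Jeko control had nearly the same value, so the groups touched. The difference over both lines was −0.35 (SE 0.20, limma adjusted p 0.333) and that in Jeko was −0.18. CERS4, the other ceramide synthase that reached a mean of 1 FPKM, was 5.95 FPKM (control), 7.04 (sgRNA 1) and 8.52 (sgRNA 2) in Jeko. In Rec-1 it was 8.93, 20.8 and 12.8 FPKM in the same order. It was above the own-line control in all 4 comparisons. Its difference was 0.33 in Jeko and 0.57 over both lines (SE 0.26, limma adjusted p 0.261), which did not pass.

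Downstream of UGCG, lactosylceramide synthase is encoded by the paralogs B4GALT5 and B4GALT6. B4GALT5 (chromosome 20, 48249482 to 48330415, minus strand) was 4.80 FPKM (control), 14.1 (sgRNA 1) and 10.8 (sgRNA 2) in Jeko, and 4.38, 7.34 and 8.15 FPKM in the same order in Rec-1. All 4 sgRNA libraries were above both controls, and here those of Jeko were the highest. Relative to control this was 2.94 and 2.25 times for the Jeko pair, against 1.68 and 1.86 times for the Rec-1 pair. The difference was 1.20 in Jeko (SE 0.24, limma adjusted p 0.361) and 0.95 over both lines (SE 0.22, limma adjusted p 0.169), so neither passed. B4GALT6 (chromosome 18, 29202209 to 29265799, minus strand) was listed at 0 in both controls and Jeko sgRNA 2, was 0.0192 FPKM in Jeko sgRNA 1, and was 5.59 and 6.39 FPKM in Rec-1 sgRNA 1 and 2. Its mean reached 1 FPKM only through the Rec-1 sgRNA libraries, where it had to be high, so its levels are a description. It is left out of the counts, medians and p-values of the results that follow. The counts by processing setting at the end include it, as stated there. The summed level of the paralogs was 4.80 FPKM (control), 14.1 (sgRNA 1) and 10.8 (sgRNA 2) in Jeko, and 4.38, 12.9 and 14.5 FPKM in the same order in Rec-1. B4GALT6 made up 43.2% and 44% of that sum in Rec-1 sgRNA 1 and 2, and 0.136% in Jeko sgRNA 1.

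ST3GAL5 (chromosome 2, 86064243 to 86132322, minus strand) encodes the GM3 synthase, which adds sialic acid to lactosylceramide. It was 18.3 FPKM (control), 22.9 (sgRNA 1) and 13.8 (sgRNA 2) in Jeko, and 18.6, 8.46 and 6.06 FPKM in the same order in Rec-1. The Jeko sgRNA libraries lay on either side of their control and the Rec-1 sgRNA libraries below every other library. The difference over both lines was −0.65 (SE 0.37, limma adjusted p 0.323) and that in Jeko was −0.04. The ratio of UGCG to ST3GAL5 in FPKM was 0.0696 and 0.0979 in the Jeko and Rec-1 controls, 0.316 and 0.510 in Jeko sgRNA 1 and 2, and 3.18 and 2.93 in Rec-1 sgRNA 1 and 2.

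ASAH1 (chromosome 8, 17913501 to 17942507, minus strand) encodes acid ceramidase. It stood at 13.5 FPKM (control), 14.4 (sgRNA 1) and 14.5 (sgRNA 2) in Jeko, and 12.2, 50.8 and 48.8 FPKM in the same order in Rec-1. The 4 lower libraries lay close together, and both Rec-1 sgRNA libraries were far above them. The difference was 0.09 in Jeko (SE 0.20, limma adjusted p 0.875) and 1.02 over both lines (SE 0.43, limma adjusted p 0.246).

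**Figure D2:**
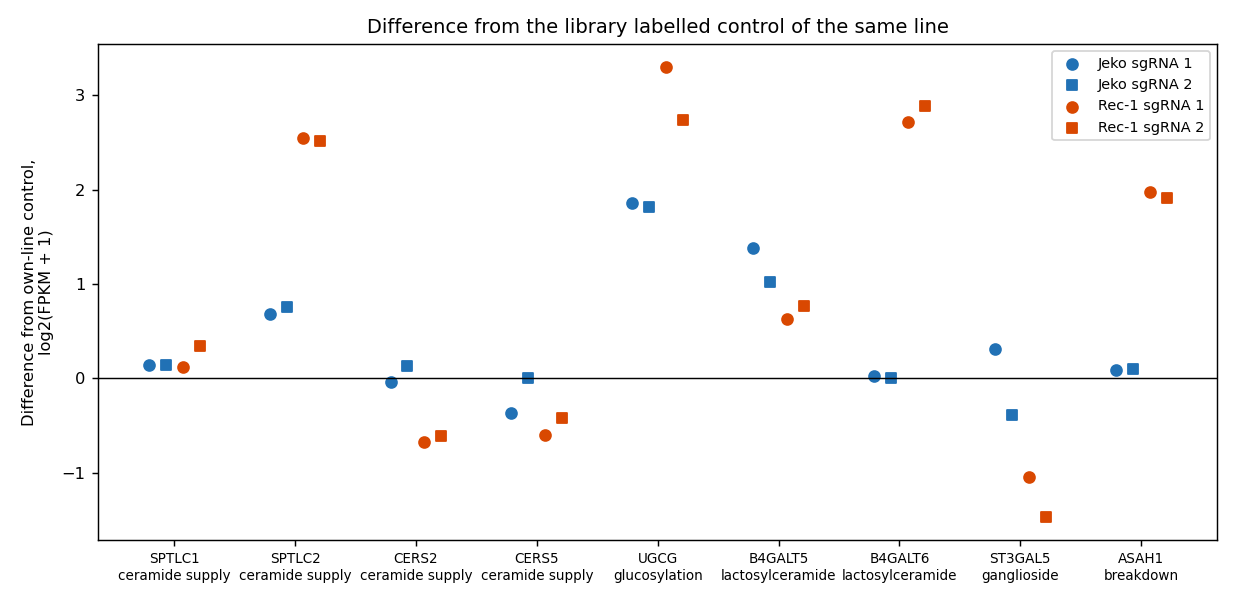
Difference of each sgRNA library from the control of its own line on the log2(FPKM + 1) scale, for the 9 genes in pathway order, with circles for sgRNA 1, squares for sgRNA 2, Jeko in blue and Rec-1 in orange. UGCG lies between 1.82 and 3.30 in all 4, B4GALT5 between 0.63 and 1.38, and SPTLC2, B4GALT6 and ASAH1 differ more from control in Rec-1 than in Jeko.

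Over both lines, 0 of the 7 genes other than UGCG and B4GALT6 passed a limma adjusted p of 0.05, and 2 of them (SPTLC2 and B4GALT5) had an unadjusted p under 0.05. Of all 11400 genes tested, 0.246% passed (0.184% higher and 0.0614% lower) and 21.1% had an unadjusted p under 0.05. The median difference of the 7 was 0.18, and that of all genes was 0.0079. Leaving out the Jeko control, which leaves the Rec-1 comparison alone, made SPTLC2 and ASAH1 pass. SPTLC1, SPTLC2, B4GALT5 and ASAH1 were higher than the own-line control in all 4 comparisons, a pattern of 21.0% of genes tested. CERS5 was lower in all 4, as were 21.1% of genes, but in Jeko sgRNA 2 its difference was only −0.00023. A difference of at least 1 in both Jeko libraries was found for UGCG and B4GALT5, and for 1.89% of genes tested. In all 4 comparisons it was found for UGCG and for 0.868% of genes tested. For UGCG both are a description, since its choice required a higher level in each comparison.

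In Jeko alone, 0 of the 7 passed limma's threshold, against 0.439% of all genes (0.149% higher and 0.289% lower), and SPTLC2 and B4GALT5 had an unadjusted p under 0.05, as had 11.3% of all genes. The median of the 7 was 0.09 and that of all genes 0. In this test the single control is assumed to vary like the pairs of sgRNA libraries. Against the library labelled Rec-1 control, 2 of the 7 passed, both higher with sgRNA, where 19.2% of all genes passed, 10.0% as higher and 9.11% as lower, and 5 of the 7 had an unadjusted p under 0.05 against 38.6% of all genes. The 2 that passed were SPTLC2 (2.53, SE 0.19, limma adjusted p 0.00520) and ASAH1 (1.94, SE 0.20, limma adjusted p 0.0104). With either Rec-1 sgRNA library left out neither passed. For SPTLC2 and ASAH1 the difference from the library labelled control was also larger in Rec-1 than in Jeko by the limma interaction test, which 6.94% of all genes passed (3.68% higher and 3.25% lower in Rec-1), with 21.9% at an unadjusted p under 0.05. The interaction was 1.81 for SPTLC2 (SE 0.26, limma adjusted p 0.0375) and 1.85 for ASAH1 (SE 0.28, limma adjusted p 0.0406). Leaving out any 1 sgRNA library removed both calls, and with no filter on low values that of SPTLC2 had a limma adjusted p of 0.0538.

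The libraries with sgRNA were then compared between the lines without the controls. The choice of UGCG did not use this comparison, but it used the same sgRNA levels. The p-value of UGCG here is therefore no separate support for its choice. Of the 7 genes other than UGCG and B4GALT6, 2 were higher in Rec-1 sgRNA and 1 was lower. Of all genes, 25.9% differed (12.8% higher and 13.0% lower, and 42.3% at an unadjusted p under 0.05). UGCG was higher in Rec-1 sgRNA by 1.49 (SE 0.25, limma adjusted p 0.0238), from 7.13 ± 0.15 to 22.3 ± 6.43 FPKM (SD, n = 2 each). SPTLC2 was higher by 1.76 (SE 0.15, limma adjusted p 0.00526) and ASAH1 by 1.71 (SE 0.16, limma adjusted p 0.00632). CERS2 was lower in Rec-1 sgRNA, at 39.1 ± 1.42 against 77.3 ± 6.24 FPKM (SD, n = 2 each), a difference of −0.96 (limma adjusted p 0.0296). ST3GAL5 (−1.20, SE 0.32, limma adjusted p 0.0656) and B4GALT5 (−0.61, SE 0.20, limma adjusted p 0.0954) did not pass, nor did SPTLC1 and CERS5. With protein-coding genes only, ST3GAL5 passed (limma adjusted p 0.0265). None of the calls for UGCG, SPTLC2, ASAH1 and CERS2 held when any 1 of the sgRNA libraries was left out. The libraries labelled Rec-1 sgRNA are also those with the low CCND1 and the higher CD3D given above, whose part in these differences was not tested.

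Between sgRNA 2 and sgRNA 1, with line as a covariate, 0 of the 8 genes other than B4GALT6 differed by limma and 0 had an unadjusted p under 0.05. Over all genes limma also called 0 (0%), with 5.75% at an unadjusted p under 0.05. The widest gap was that of ST3GAL5, at −0.56 (SE 0.20, limma adjusted p 0.715), lower with sgRNA 2 in both lines. For UGCG it was −0.30 (SE 0.23, limma adjusted p 0.742).

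Differences from control went with the annotated length of the transcript in both lines. With 10322 protein-coding genes in 5 groups by length, the median difference in Jeko went from −0.34 in the shortest to 0.36 in the longest. Against the library labelled Rec-1 control it went from −0.23 to 0.17. UGCG, with a transcript of 3959 nt, belonged to the fourth group. There the Jeko median was 0.19 and the 90th percentile 0.64, and the mean Jeko difference of UGCG was 1.84. B4GALT5 (4722 nt) was in the same group at 1.20. SPTLC2, with 8034 nt, was in the longest group, in Jeko below its 90th percentile of 0.82. Adjustment for length took the Jeko difference of UGCG to 1.71, that of B4GALT5 to 0.99 and that of SPTLC2 to 0.33. The length-adjusted difference of SPTLC2 over both lines was 1.35.

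**Figure D3:**
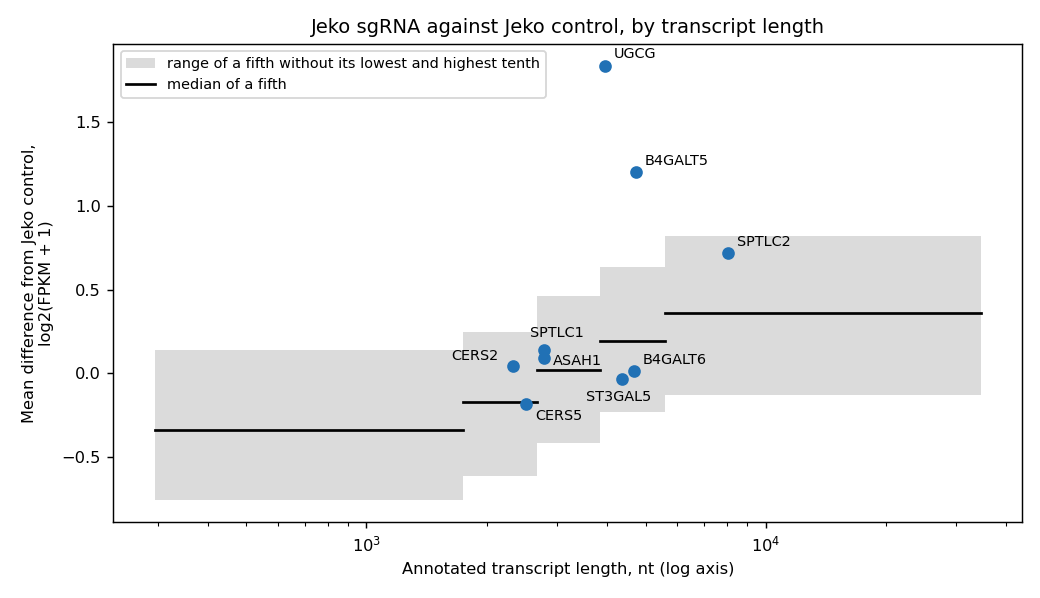
Mean difference of the 2 Jeko sgRNA libraries from the Jeko control (log2(FPKM + 1)) against annotated transcript length (log axis), with a point for each of the 9 genes, black lines for the median and grey bands for the 10th to 90th percentile of protein-coding genes in 5 groups by length. UGCG at 1.84 and B4GALT5 at 1.20 lie above the band of their group, and the other 7 genes lie within theirs.

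The wider pathway was read from 60 other genes of sphingolipid metabolism, of which 38 reached a mean of 1 FPKM. B3GALNT1 did so only through the Rec-1 sgRNA libraries and is left out of the counts, which leaves 37. Over both lines 0 of the 37 passed limma's threshold, against 0.246% of all genes, and 6 had an unadjusted p under 0.05, against 21.1% of all genes. In Jeko 0 passed, against 0.439%, and 4 had an unadjusted p under 0.05, against 11.3%, with a median difference of 0.23 against 0 for all genes. Of the 37, 12 were higher and 6 lower than the own-line control in all 4 comparisons, as were 21.0% and 21.1% of all genes. UGT8, which adds galactose to ceramide and so draws on the same substrate as UGCG, was 1.79 FPKM (control), 6.22 (sgRNA 1) and 5.85 (sgRNA 2) in Jeko, and 2.46, 8.64 and 7.22 FPKM in the same order in Rec-1. Its difference was 1.33 in Jeko (SE 0.20, limma adjusted p 0.233) and 1.35 over both lines (SE 0.18, limma adjusted p 0.106), so that every sgRNA library was above both controls without passing. COL4A3BP, the ceramide transfer protein that carries ceramide to the Golgi, was 3.39 FPKM (control), 6.05 (sgRNA 1) and 5.75 (sgRNA 2) in Jeko, and 3.95, 9.90 and 9.74 FPKM in the same order in Rec-1 (difference 0.65 in Jeko and 0.89 over both lines, limma adjusted p 0.397 and 0.169). SGMS1, a sphingomyelin synthase, also higher in all 4 comparisons, had differences between 0.37 and 1.18. The group of other ceramide uses and transfer, to which these 3 belong, had a median of 0.42 in Jeko and 0.51 over both lines in 6 tested genes. The 7 tested genes of ceramide supply had a median of 0.23 in Jeko and −0.32 over both lines, so that its sign turned with the library labelled Rec-1 control included.

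Among genes lower in all 4 comparisons, SPHK1, a kinase that makes sphingosine 1-phosphate, was 6.36 FPKM (control), 2.33 (sgRNA 1) and 2.51 (sgRNA 2) in Jeko, and 3.54, 0.351 and 0.452 FPKM in the same order in Rec-1. Its difference was −1.10 in Jeko and −1.40 over both lines (limma adjusted p 0.235 and 0.160). ORMDL3, an inhibitor of serine palmitoyltransferase, was 50.3, 34.6 and 41.8 FPKM in Jeko and 50.0, 27.2 and 32.4 in Rec-1 in that order, and differed by −0.39 in Jeko and −0.56 over both lines. The lysosomal hexosaminidase subunit HEXA (29.5, 22.5 and 26.9 FPKM, then 32.4, 29.4 and 27.5) differed by −0.26 in Jeko and −0.22 over both lines. SMPD2, a sphingomyelinase (10.4, 7.83 and 8.41 FPKM, then 8.97, 7.17 and 4.69), differed by −0.32 in Jeko and −0.44 over both lines. None of these passed.

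Against the library labelled Rec-1 control, 3 of the 37 were higher and 4 lower by limma, against 10.0% and 9.11% of all genes. Between Rec-1 sgRNA and Jeko sgRNA, 5 were higher and 6 lower, against 12.8% and 13.0% of all genes. Receptors for sphingosine 1-phosphate were among the largest of these differences. S1PR1 was 11.9 and 7.22 FPKM in Jeko sgRNA 1 and 2, and 0.0177 FPKM in Rec-1 sgRNA 1 and listed at 0 in Rec-1 sgRNA 2 (−3.35, limma adjusted p 0.00441). S1PR4 was 1.69 and 1.84 FPKM in Jeko sgRNA and 38.9 and 14.3 in Rec-1 sgRNA (3.16, limma adjusted p 0.0218), and S1PR2 was higher by 1.39 (limma adjusted p 0.0134). SGPP1, a phosphatase of sphingosine 1-phosphate, differed by 1.34 and SPHK1 by −1.29 (limma adjusted p 0.0325 and 0.00886). B3GALNT1, the globoside synthase, was at most 0.0147 FPKM in Jeko sgRNA and 4.90 and 8.52 FPKM in Rec-1 sgRNA, a description only, since it entered through these libraries. GALC, which splits galactosylceramide, was 2.68 and 3.03 FPKM in Jeko sgRNA and listed at 0 in both Rec-1 sgRNA libraries (limma adjusted p 0.00318). KDSR, the reductase that follows serine palmitoyltransferase, was lower, with a difference of −1.23 (limma adjusted p 0.0226).

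**Figure D4:**
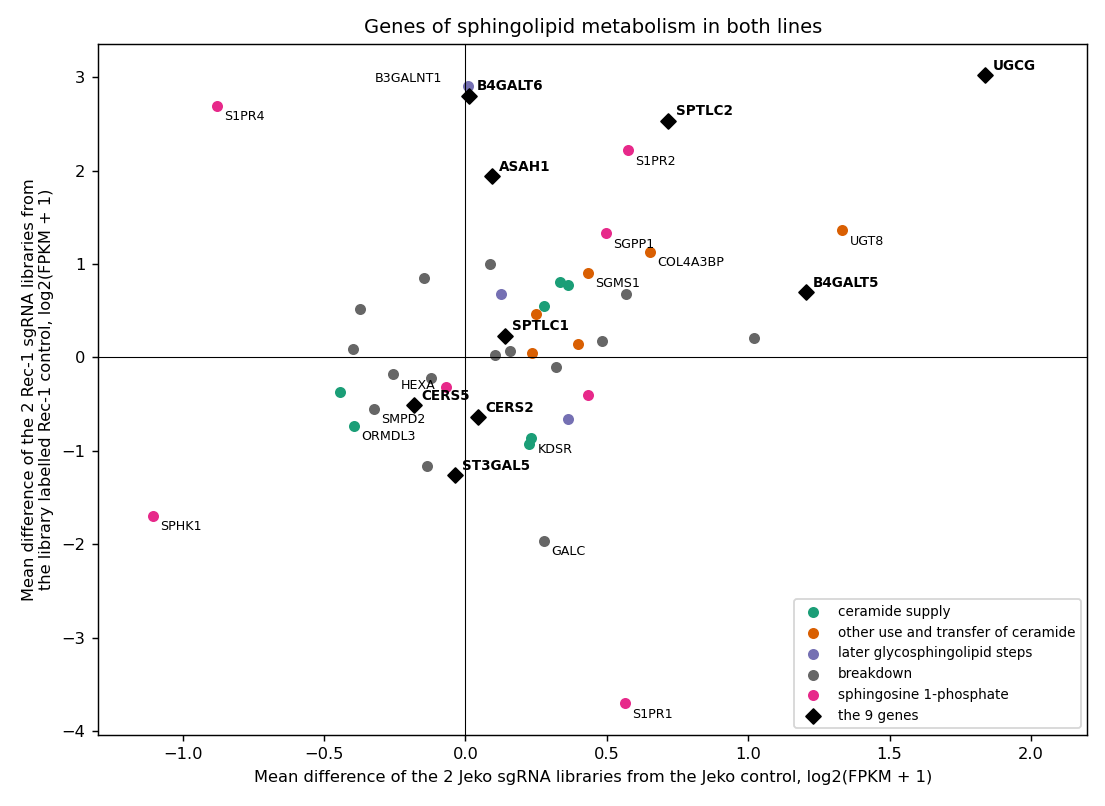
Mean difference from the own-line control in Rec-1 (vertical axis) against that in Jeko (horizontal axis), both on the log2(FPKM + 1) scale, for the 9 genes (black diamonds) and the 38 tested other genes of sphingolipid metabolism (circles coloured by group). UGCG (1.84 and 3.02) and UGT8 (1.33 and 1.36) are on the high side in both lines, SPHK1 on the low side in both, and S1PR1 and GALC are higher in Jeko and lower in Rec-1.

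The levels of UGCG were ordered, from the lowest, as Jeko control, Rec-1 control, Jeko sgRNA 2, Jeko sgRNA 1, Rec-1 sgRNA 2 and Rec-1 sgRNA 1. The Jeko sgRNA libraries differed from each other by 0.209 FPKM, less than the gap of 0.549 FPKM between the controls, which have no replicate. Among 2008 other genes whose highest and lowest library differed by at least 2 on the log2(FPKM + 1) scale, the 5 with the highest Pearson correlation with UGCG over the 6 libraries were RNU4ATAC (0.990), TAF4B (0.987), REL (0.987), TBC1D14 (0.986) and PJA2 (0.986). REL, an NF-κB subunit, was 0.549 FPKM (control), 2.10 (sgRNA 1) and 2.40 (sgRNA 2) in Jeko, and 0.681, 10.5 and 6.57 FPKM in the same order in Rec-1. RNU4ATAC is a small RNA of the minor spliceosome, 127 nt long, and was listed at 0 in both controls. These correlations describe 6 libraries that share 2 lines. Among the 9 genes SPTLC2 had the closest pattern to UGCG (0.955), followed by ASAH1 (0.876), and CERS5 the most opposite (−0.843). The value for B4GALT6 (0.837) is a description only. This gene reached the minimum mean through the Rec-1 sgRNA libraries alone, where UGCG was also highest.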

How the data were processed

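The authors deposited 1 table of FPKM values, per the file headers, with 6 library columns, all matched to samples by line and number. Total RNA went through an Illumina TruSeq kit, per the labels' protocols, and TopHat and hg19 are named in the submitters' processing notes. Versions, the program that computed FPKM, the annotation and the use of strand are not given in the sources used here. Absolute read depth is not given. From values under 0.05 FPKM, depth relative to the Jeko control was 0.872 and 1.10 for Jeko sgRNA 1 and 2, 1.10 for the control of Rec-1, and 0.687 for its sgRNA 2. Rec-1 sgRNA 1 showed no such step (0.712% of 562 genes shared the commonest ratio, against 30.0% to 35.8% elsewhere). FPKM summed to between 905778 and 1160107 per library.

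Values were analysed as log2(FPKM + 1) for the 11400 genes whose mean over libraries reached 1 FPKM, with limma 3.58.1 in R 4.3.3 (trend, Benjamini-Hochberg over all genes, threshold 0.05). The code was checked on simulated data, with independent noise of equal spread in every library of a gene and no difference between the lines. That check cannot show how the tests behave where controls or lines differ otherwise, as they may here. The fit over both lines had the line as covariate and no interaction, so a difference between the lines in the sgRNA comparison widens its SE. Within-line, interaction and between-line contrasts came from 4 group means, whose spread rests on the 2 pairs of sgRNA libraries. Coordinates and lengths are from GENCODE 44 on GRCh37. Alternatives were the pseudocount, the filter, scaling, protein-coding genes only, transcript length, a guide block and each library left out. Members and gene lists were chosen with earlier results of these data known. Other pathway genes are named where they passed in the Jeko, both-line or between-line contrast (up to 4 a direction) or had the largest smallest difference among those of 1 sign in all 4 comparisons (4 a direction). CERS4 is named besides these, as the other ceramide synthase tested. Genes like UGCG are the 5 of highest correlation.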

Additional observations from a re-analysis of the deposited data

Results flagged for a closer look

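The difference from the library labelled control was larger in Rec-1 than in Jeko by the limma interaction test for SPTLC2 (1.81, SE 0.26, adjusted p 0.0375) and ASAH1 (1.85, SE 0.28, adjusted p 0.0406). For B4GALT6 (2.79) and B3GALNT1 (2.90) it was also larger, as a description only, because both reached the minimum mean through the Rec-1 sgRNA libraries alone. S1PR1 (−4.27, SE 0.46, limma adjusted p 0.0207) and GALC (−2.25, SE 0.23, limma adjusted p 0.0188) passed the same test and were higher than control in both Jeko sgRNA libraries and lower in both Rec-1 sgRNA libraries. S1PR4 (3.57, SE 0.87, limma adjusted p 0.118), KDSR (−1.10, SE 0.35, limma adjusted p 0.182) and NR4A1 (1.09, SE 0.69, limma adjusted p 0.438) went in opposite directions in the 2 lines without passing. All these values include the single library labelled Rec-1 control, which lay close to the Jeko control and may not hold the same cells as the Rec-1 sgRNA libraries. That difference and a response to sgRNA cannot be told apart in them.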

How the results depend on the processing

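The counts in this paragraph include B4GALT6, which reaches the minimum mean only through the Rec-1 sgRNA libraries and makes up every count of 1. Those that use no control, between the lines and between the guides, also include UGCG, whose choice used the same sgRNA levels. Among the 8 genes other than UGCG, the count called over both lines was 0 under each alternative except those that leave out a library, where it ranged from 0 to 3 (3 without the Jeko control). In Jeko alone it was 0 under every alternative run. Against the library labelled Rec-1 control it was 3, or 2 with a minimum mean of 5 FPKM, which B4GALT6 does not reach, and from 1 to 3 with a library left out (1 without either Rec-1 sgRNA library). For the interaction it was 3, 2 with no filter on low values (SPTLC2 no longer passing), 0 with a minimum mean of 5 FPKM and from 0 to 1 with a library left out (0 without Jeko sgRNA 2, 1 without each other sgRNA library). Between Rec-1 sgRNA and Jeko sgRNA the count of 5 of 9 ranged from 1 to 5 with a library left out, 1 without any of the 4 sgRNA libraries, and was 6 with protein-coding genes only, where ST3GAL5 passed, and 4 with no filter. The fits with a library left out hold fewer samples, and with an sgRNA library left out the single one is assumed to vary like the other pair. Between the guides it was 0 throughout, and leaving out an sgRNA library was not run there because no residual degree of freedom remains. With guide number as replicate block, 0 of the 8 were called over both lines and 9 genes in all against 28. Across the 11400 genes tested, the difference between sgRNA 1 and sgRNA 2 correlated at 0.10 between the lines, which rests on 2 pairs of libraries.

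Over all genes, the count over both lines was 39 with a pseudocount of 0.1, 12 with no filter on low values, 0 for protein-coding genes only and 17 after length adjustment. In Jeko the count of 50 was 3 for protein-coding genes only. With a minimum mean of 5 FPKM the counts against the Rec-1 control, for the interaction and between the lines were 1083, 318 and 1549, and with a library left out they ranged from 657 to 2180, from 75 to 454 and from 803 to 2940. Over both lines that range was 11 to 2180.

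UGCG kept its direction under all alternatives run. Its difference over both lines went from 1.84 (without the Rec-1 control) to 3.02 (without the Jeko control). The choice of UGCG required each sgRNA library to be above its own control. Leaving out a library, or changing the pseudocount or the filter, therefore could not turn its sign against control. That kept direction is a description and no test of UGCG. With no filter on low values the limma adjusted p of UGCG between the lines was 0.0514. The sign turned for small differences only. Leaving out a library, CERS2 over both lines ranged from −0.644 (without the Jeko control) to 0.0442 (without the Rec-1 control). In Jeko, CERS2 ranged from −0.0371 to 0.125 and ST3GAL5 from −0.385 to 0.310, each turning without sgRNA 2. SPTLC1 ranged from −0.0213 to 0.204 for the interaction and from −0.0140 to 0.212 between the lines, turning without Rec-1 sgRNA 2. Length adjustment took B4GALT6 to −0.19 in Jeko and SPTLC2 to −0.0073 between the guides, and a pseudocount of 0.1 took B4GALT6 to −0.0310 between the guides. The causes were not tested. Without counts, no counting error could be given.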
